A study of Mus musculus with 7 samples.

Results

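The Vmn1r genes encode the type 1 vomeronasal receptors, and every row of the deposited expression table whose name starts with Vmn1r and a digit was taken, with no filter on expression. These were 201 of the 25965 rows. The table covers embryos at E9.5 of the mouse strain FVB/N, all female, from which the tissue behind the last somite was dissected (the labels call it postsomitic mesoderm, the series title presomitic mesoderm). Whole RNA was sequenced from 3 libraries of Smchd1 +/+ embryos (wild type) and 4 libraries of Smchd1 MommeD1/MommeD1 embryos (null). MommeD1 is a null allele of Smchd1, which encodes a chromosomal protein that takes part in gene silencing, and it is carried by the whole embryo rather than driven in 1 tissue. The series' design text speaks of 3 null samples, whereas the table holds 4 null columns, and all 4 were used. The libraries carry the letters A to D (null) and A to C (wild type) in the order of the table. The labels do not say whether each library came from a separate embryo or a pool, so the p-values below measure no more than the spread among these 7 libraries, which may be technical.

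Type 1 vomeronasal receptors are G protein-coupled receptors with a single coding exon. They are known from the sensory neurons of the apical layer of the vomeronasal organ, where a neuron typically expresses 1 receptor gene and the receptor signals through the G protein subunit Gnai2 and the channel Trpc2. The genes lie in clusters made by repeated duplication, so that neighbours are often near-copies of each other. The vomeronasal organ has not formed at the stage sampled here.

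The values were deposited as log2 CPM, and the number of reads behind each value was recovered from the steps between low values. The null libraries had 22137823 to 23847381 reads in the listed genes, and the wild-type libraries 19622596 to 23548995. These reads made up 34.3% to 37.4% of the deposited denominator in the null libraries, but 37.9%, 31.2% and 28.8% in wild-type libraries A, B and C, so levels are given below as RPM, reads per 1000000 reads in listed genes, unless the deposited scale is named. A count of 0 allows up to 3 reads, which is 0.126 to 0.153 RPM, and such limits cover counting error only. The targeted gene Smchd1 had 1922 to 2372 reads in the null and 5572 to 6552 in the wild type, and its log2 change on the deposited scale was -1.48 (limma, adjusted p = 0.000238). The 8 tailbud and presomitic marker genes were all present, at 803 to 1023 RPM in sum in the null and 609 to 877 in the wild type. None of them was called, and their median log2 change was 0.67, or 0.48 after median centring. Wild-type library B gave the low end of 609 and stood apart in several of these genes, though not in all. It had 118 reads of Wnt3a, against 1102 to 1752 in the other 6 libraries, and 200 of Cyp26a1, against 2033 to 3100. T, Msgn1, Hes7 and Fgf8 were also lowest there. Dll1 went the other way, with 6111 reads against 3713 to 5321. Tbx6 (2233) lay within the range of the others (2211 to 3199). The same library had the most reads of the somite marker Meox1, 3272 against 316 to 2076 elsewhere. It also had the most of the somite marker Tcf15 (647), but the fewest of Myf5 (2, against 4 to 18). The results for Vmn1r90, for the other members in sum and for the number of rows called are given below with and without it. The changes of the marker genes include it and are not given without it.

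Of the 201 Vmn1r rows, 190 (94.5%) had no read in any of the 7 libraries, against 4155 of all 25965 rows (16.0%). Another 6 rows had 1 to 6 reads in all, and 5 rows had 10 reads or more: Vmn1r90, Vmn1r4, Vmn1r32, Vmn1r53 and Vmn1r200. The family as a whole collected 3873 reads, of which 3441 (88.8%) lay in the single row Vmn1r90. That row was the only member whose deposited value exceeded 0 in at least 3 libraries, the limit used for the main fit, and it did so in all 7.

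Since reads from near-copies can be exchanged, the coding sequence of Vmn1r90 was set beside those of its closest relatives. It has 927 bases, a small part of the 92413 bases that the row spans, which are described further below. Among the 200 members with a coding sequence in GENCODE M21, the closest to it were Vmn1r177 (94.2% identity) and Vmn1r168 (94.1%), both on chromosome 7, followed by Vmn1r183 at 76.2%. The median identity to Vmn1r90 over the members was 52.5%. The first 90 coding bases are shown for the 3 genes, read from the GENCODE M21 transcripts (GRCm38, the build called mm10), 5′ to 3′ from the start codon, with capitals at the bases that differ from Vmn1r90. The Vmn1r90 stretch is at chr7:14562082-14562171 on the minus strand, that of Vmn1r177 at chr7:23866360-23866449 on the minus strand, and that of Vmn1r168 at chr7:23540720-23540809 on the plus strand.
Vmn1r90: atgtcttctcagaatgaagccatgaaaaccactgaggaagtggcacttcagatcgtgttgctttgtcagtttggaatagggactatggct
Vmn1r177: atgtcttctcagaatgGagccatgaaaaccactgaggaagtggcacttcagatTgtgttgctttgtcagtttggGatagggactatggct
Vmn1r168: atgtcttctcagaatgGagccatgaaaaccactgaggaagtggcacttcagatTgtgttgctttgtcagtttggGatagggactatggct
Each relative differs from Vmn1r90 at 3 of these 90 bases. Vmn1r177 and Vmn1r168 had 0 reads in every library.

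Vmn1r90 was higher in the null libraries. It had 724, 772, 744 and 730 reads in null libraries A to D, and 206, 124 and 141 reads in wild-type libraries A to C. In RPM these were 31.4, 32.8, 33.6 and 30.6 in the null and 8.75, 6.08 and 7.19 in the wild type. The 4 null libraries lay close together, the wild-type libraries all lay below them, and the groups did not overlap. The means were 32.1 ± 1.36 (SD, n = 4) and 7.34 ± 1.34 (SD, n = 3), a ratio of 4.37, with an exact two-sided permutation p of 0.0286, the smallest that the 35 splits of 7 libraries can give. Wild-type library B, which stood apart in several tailbud markers, had the lowest Vmn1r90 level, and without it the ratio was 4.03. The part of these markers in the difference was not tested. On the deposited log2 scale the change was 2.29 (SE 0.21, limma, adjusted p = 0.000244 over the 13997 rows fitted). It ranked second by p among all rows fitted, where 5 rows were called higher in the null (0.0357% of those fitted) and 1 lower (0.00714%). The median log2 change over all fitted rows was 0.16. With every library shifted to the same autosomal median the change of Vmn1r90 was 2.10 (limma, adjusted p = 0.000728), where 0.05% of rows were called higher and 0.00714% lower. The number of rows called over the table, 6 in all, turned on single libraries: leaving out null library A gave 166. Leaving out a wild-type library gave 4220 (A), 146 (B) or 2 (C). After median centring, where 8 rows were called with all libraries, the same fits gave 7, 4, 10 and 4. Vmn1r90 itself was called in each of these fits on both scales. In a bulk sample, more cells that carry a transcript and more of it per cell cannot be told apart.

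**Figure D1:**
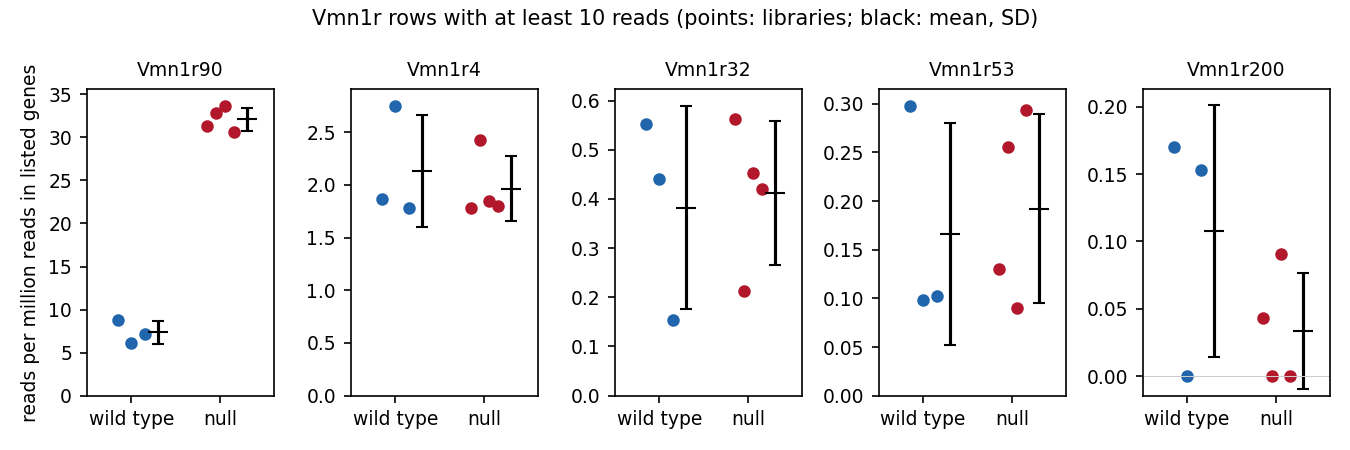
RPM, reads per 1000000 reads in listed genes (linear axes, 1 scale per panel) of the 5 Vmn1r rows with at least 10 reads, with 1 point per library (blue wild type, red null) and black bars for the mean and SD. The null and wild-type points are apart for Vmn1r90 (30.6 to 33.6 against 6.08 to 8.75) and overlap for the other 4 rows.

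The size of the change was recomputed under 26 alternatives to the fit of the deposited values, among them other scalings, leaving out each library and a fit without the filter. It ran from 1.89 to 2.60 on the log2 scale, and Vmn1r90 was called in each (limma, adjusted p from 2.74e-25 to 0.0347). The lower end came from a pseudocount of 1. The upper end came from array weights, whose estimation stopped before convergence. The smallest p came from a replicate block on the last number of the column names. After median centring the same block gave an adjusted p of 0.00671 (limma).

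**Figure D2:**
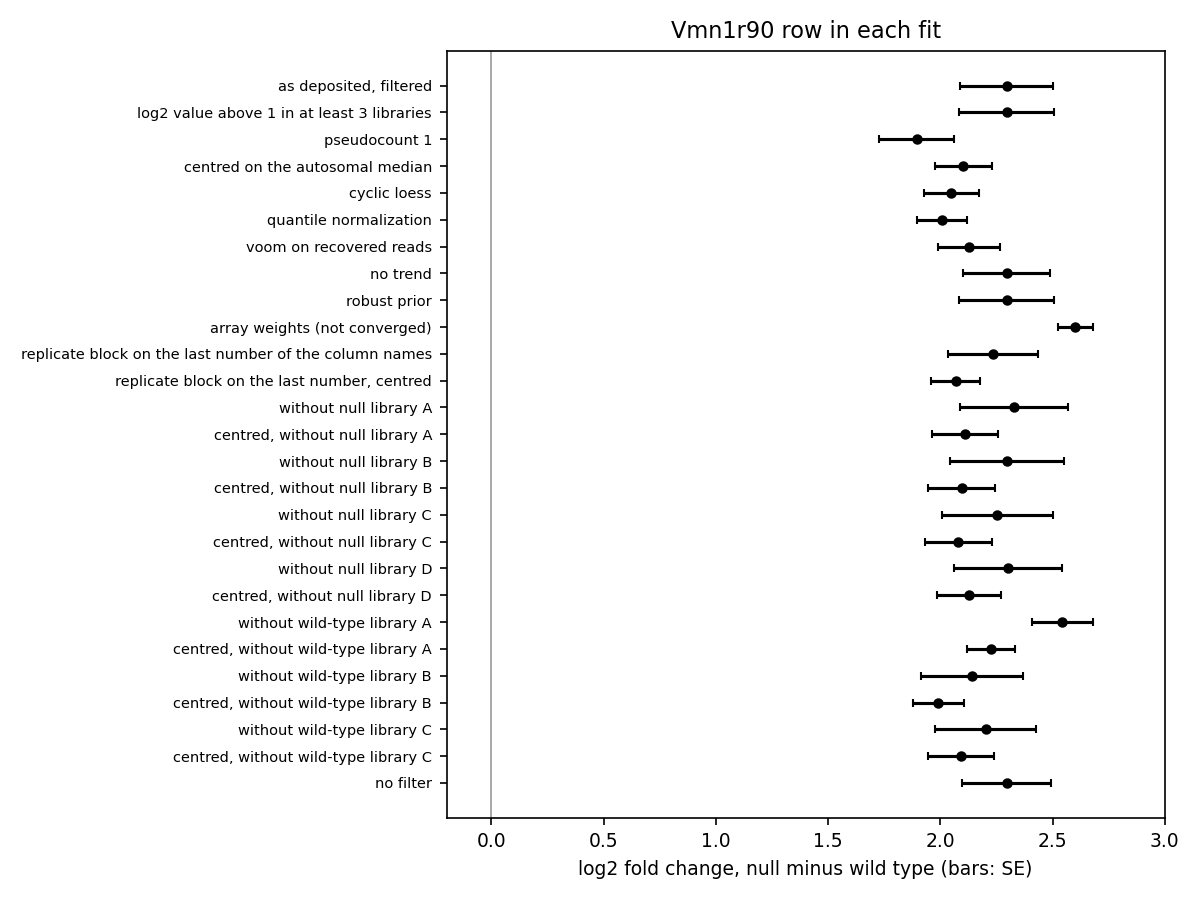
Log2 change of the Vmn1r90 row, null minus wild type, in the fit of the deposited values and in each alternative, with bars for the SE. The points lie between 1.89 and 2.60, all to the right of 0.

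The column names carry a last number that libraries of both genotypes share, whose meaning the labels do not give. Within each of these numbers the Vmn1r90 level was higher in the null, by a ratio of 5.16 for 18 (31.4 against 6.08), 4.26 for 21 (30.6 against 7.19) and 3.80 for 22 (33.2 against 8.75). A first number, 4180, was likewise shared by 1 null and 2 wild-type libraries, where the ratio was 4.62. The groups did not overlap, so each of these ratios had to be above 1, and only their sizes differ. Null libraries B and C share both numbers, 4168 and 22. Whether the 4 null libraries are independent of each other is not given by the labels.

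The row named Vmn1r90 does not cover the receptor gene alone. It spans chr7:14530654-14623066 on the minus strand, 92413 bases, which are exactly the coordinates of the RefSeq gene Nlrp5-ps (GRCm38.p6), a transcribed pseudogene related to Nlrp5. Nlrp5 itself is an oocyte gene whose product belongs to the subcortical maternal complex. The transcript identifier in the row, ENSMUST00000044683, likewise belongs to Nlrp5-ps in GENCODE M21. The receptor gene lies inside that span on the same strand. GENCODE M21 places Vmn1r90 (ENSMUSG00000100586) at chr7:14555474-14563506, 8033 bases with 7796 exon bases over 9 transcripts, and RefSeq at chr7:14561242-14562171, 930 bases.

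The exons of the 2 genes overlap. Nlrp5-ps has 14 exon blocks with 4335 bases, of which 1757 bases are shared with exons of Vmn1r90. Of the 927 coding bases of Vmn1r90, 812 lie inside exons of Nlrp5-ps. The sources used here do not give the annotation, the strand setting or whether exons or the whole interval were counted. Reads of Nlrp5-ps and of Vmn1r90 therefore cannot be told apart in this row, and its change is given for the locus, not for the receptor transcript. Pseudogenes on the opposite strand, Obox4-ps3, Zfp-ps and Ranbp2-ps1, also lie inside the span, and no other row of the table overlaps it.

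**Figure D3:**
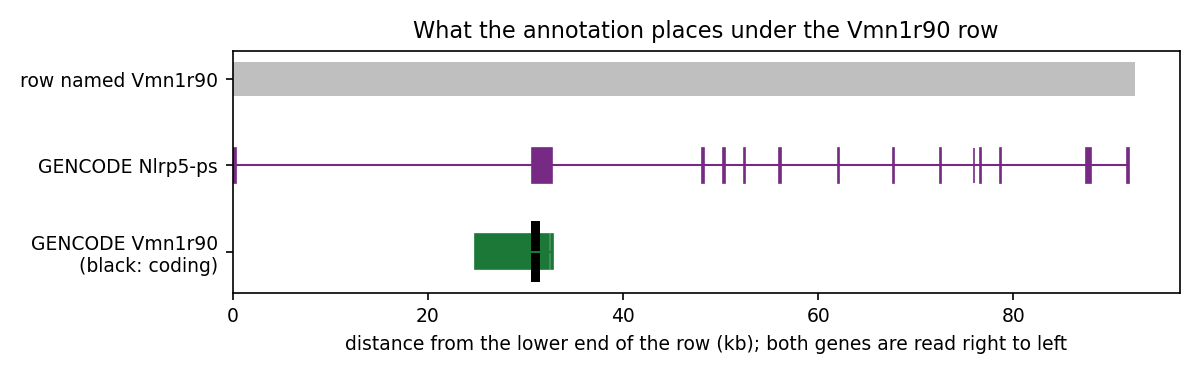
Map of the span of the row named Vmn1r90 (grey), with the distance from its lower end in kb on the horizontal axis, the exon blocks of Nlrp5-ps (purple) and Vmn1r90 (green) from GENCODE M21, and the coding part of Vmn1r90 in black. The Vmn1r90 exons take up a small part of the 92413 bases of the row, and the large exon block of Nlrp5-ps overlaps them.

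Exact copies of the exon sequence at this locus were looked for in the transcripts of other genes. Introns, the rest of the genome and copies with mismatches were not searched. Of the 8110 stretches of 50 bases in the Vmn1r90 transcripts, 1.73% occurred in another gene's transcripts, 1.65% in those of other Vmn1r members. For the coding part alone 10.4% of 878 stretches did so, and for Nlrp5-ps 9.79% of 4374, most often in Nlrp5 (315 stretches). With stretches of 30 bases the shares were 7.92%, 26.5% and 18.1%. The read length is not named in those sources. The Nlrp5 row, looked up after the values of Vmn1r90 were seen, had 4 to 8 reads in the null and 1 to 5 in the wild type. Neither this near-copy nor Vmn1r177 or Vmn1r168 had reads on the scale of the Vmn1r90 row. How reads that match several places were handled is not given, and whether such reads were placed on this row was not tested. The reference genome is of another strain than FVB/N, and what this does to reads from near-copies was not tested.

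Around Vmn1r90 chromosome 7 was almost without reads. Within 500 kb on either side lay 5 rows, with 5 reads among them over the 7 libraries. Sult2a6, a sulfotransferase gene 276 kb before Vmn1r90, had 4 of them (3 in null library B and 1 in wild-type library C), and Gm4745, 36.6 kb after it, had 1 (in null library C). Sult2a3, 2810007J24Rik (83.9 kb away) and AC092752.1 (37.7 kb away) had 0. None of the 5 reached 10 reads in either genotype, so no change in them was detectable at this depth.

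The nearest rows that passed the filter were Pla2g4c, a phospholipase gene 1.17 Mb before Vmn1r90, and Sepw1, which encodes a small selenoprotein, 1.29 Mb after it. Between these lay 19 other rows, 9 of them with no read. Cabp5, a calcium-binding protein gene, had the most with 93, and Sult2a2 had 13, at 1 to 3 reads in each library of either genotype. Pla2g4c changed by 0.09 on the log2 scale (limma, adjusted p = 0.827) and Sepw1 by 0.08 (adjusted p = 0.724). Both were at -0.11 after median centring. The next kept rows outward, the DNA ligase gene Lig1 (log2 change 0.09, limma, adjusted p = 0.659) and Gltscr2 (0.07, adjusted p = 0.724), were not called either.

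In a window of 2000 kb on either side, chosen after the values were seen, 35 of 66 rows passed the filter. Their log2 changes ran from -0.02 to 0.40, with a median of 0.14, and none was called (limma, smallest adjusted p = 0.398; 0 had an unadjusted p under 0.05). After median centring they ran from -0.22 to 0.20, with 1 unadjusted p under 0.05 and 0 called. In none of the 35 did the null libraries lie all above or all below the wild type, where 8.56% of all rows with 10 reads or more lay all above and 2.78% all below. Vmn1r90 thus stood at 2.29 among kept neighbours that reached 0.40 at most.

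**Figure D4:**
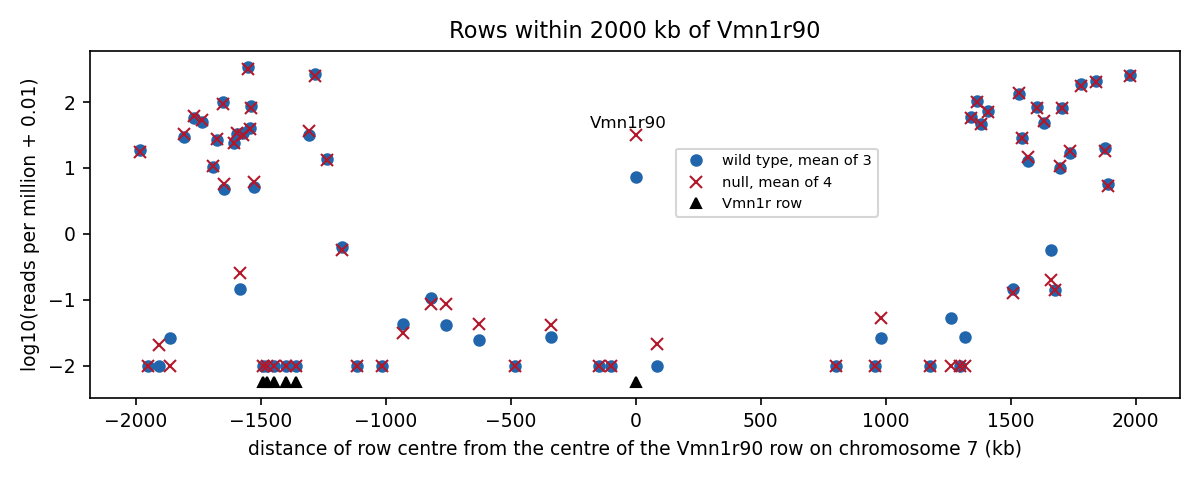
Mean level of each row within 2000 kb of Vmn1r90 on chromosome 7, as log10 of RPM plus 0.01, against the distance between row centres in kb (blue circles wild type, mean of 3; red crosses null, mean of 4; black triangles mark Vmn1r rows). Vmn1r90 stands at 32.1 in the null and 7.34 in the wild type before the log, among rows with few or no reads within 500 kb on either side, and the other rows with high levels have their circle and cross close together.

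There were 100 Vmn1r rows on chromosome 7, and in the 99 besides Vmn1r90 no read was counted in any of the 7 libraries. Some of them are identical in coding sequence to another member, such as Vmn1r100 and Vmn1r148 (100%). Reads from such copies may have gone uncounted, which was not tested. Vmn1r90 is also the only row of its position cluster, when rows within 1 Mb of each other are joined. A cluster of 24 rows lies before it (chr7:10273828-13220289), with Vmn1r89 nearest at 1.31 Mb. A cluster of 62 rows lies after it (chr7:20101158-24055691), with Vmn1r91 nearest at 5.48 Mb. The clusters at either end, chr7:5146218-6011010 with 11 rows and chr7:26266831-26612164 with 2, had no read either.

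**Figure D5:**
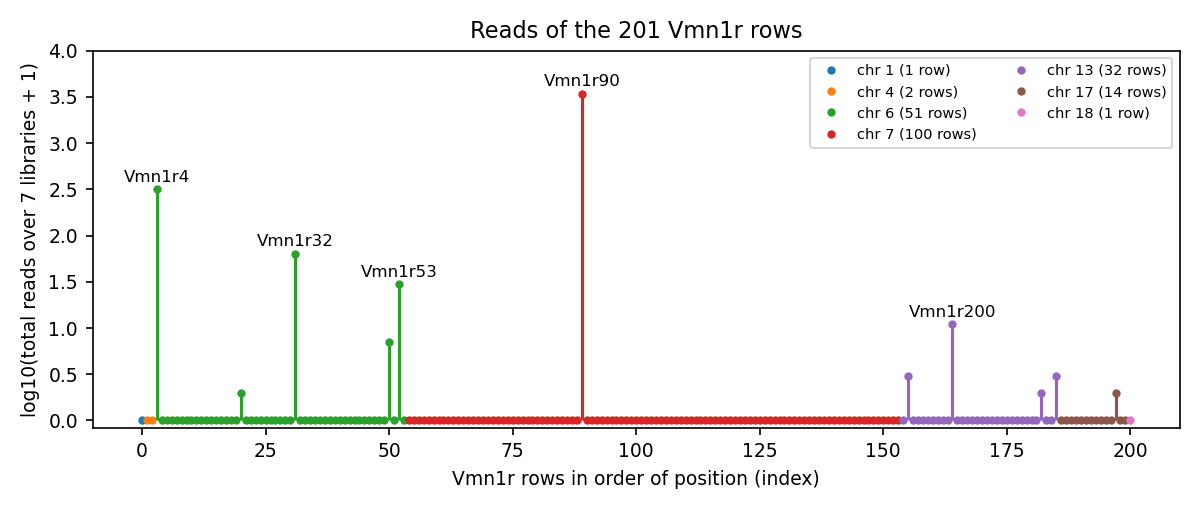
Reads over the 7 libraries, as log10 of the total plus 1, for each of the 201 Vmn1r rows in the order of their position, coloured by chromosome. Vmn1r90 is the only row of chromosome 7 with reads, and the other rows with reads are on chromosomes 6, 13 and 17.

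The remaining reads of the family lay mostly on chromosome 6, which holds 51 rows in 3 clusters. The cluster chr6:56924022-58475343 has 28 rows, of which 2 had reads, 318 in all. The cluster chr6:66552183-66805443 has 8 rows and had 63 reads, and chr6:89714203-90270053 has 15 rows and had 35. On chromosome 13 there is 1 cluster of 32 rows (chr13:22087878-23250323), where 4 rows had 15 reads in all. On chromosome 17 the 14 rows (chr17:20419163-21314909) had 1 read. By the older names of the subfamilies, V1rc held 381 of these reads in 3 of its 31 rows. V1rb had 29 in 1 of 6 rows, V1rh 13 in 3 of 19, V1ra 6 in 1 of 9 and V1rf 1 in 1 of 5. The 20 V1rd, 13 V1re, 11 V1rg and 9 V1ri rows had none, and Vmn1r90 itself has no older name in RefSeq.

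Vmn1r4 (formerly V1rc21) came next to Vmn1r90, with 41, 57, 41 and 43 reads in the null libraries and 44, 56 and 35 in the wild type. Null library B and wild-type library B were the highest of their groups, and the groups overlapped. The levels were 1.96 ± 0.308 (SD, n = 4) and 2.13 ± 0.533 RPM (SD, n = 3), a ratio of 0.921. On the deposited scale the means were -0.51 ± 0.20 and -0.56 ± 0.37, under the filter limit of 0. In a fit over every row the log2 change was 0.05 (limma, adjusted p = 0.935). The row spans chr6:56924022-56958100 on the plus strand and is 1 of 4 members that span over 10 kb, with an unnamed gene model (Gm44049) on the opposite strand.

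Vmn1r32 (formerly V1rc15) was the closest relative found for Vmn1r4 by coding sequence, at 85.5% identity. It had 13, 5, 10 and 10 reads in the null libraries and 13, 9 and 3 in the wild type, so that the lowest and a joint highest library were both wild type. The levels were 0.412 ± 0.146 (SD, n = 4) and 0.382 ± 0.206 (SD, n = 3) RPM, a ratio of 1.08. The fit over every row gave a log2 change of 0.37 (limma, adjusted p = 0.875). The closest relative found for Vmn1r32, Vmn1r37 at 90.8%, had no read. The row lies at chr6:66552183-66559708 on the minus strand.

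Vmn1r53 (formerly V1rb3), at chr6:90223317-90224438 on the minus strand, had 3, 6, 2 and 7 reads in the null and 7, 2 and 2 in the wild type. Vmn1r200 (formerly V1rh3), at chr13:22394947-22396009 on the plus strand, had 1, 0, 2 and 0 reads in the null and 4, 0 and 3 in the wild type. The groups overlapped for both rows. The log2 change over every row was 0.41 for Vmn1r53 (limma, adjusted p = 0.867) and -0.95 for Vmn1r200 (adjusted p = 0.614). With so few reads a difference of moderate size was not detectable. The other 6 rows with reads were Vmn1r51 (6 reads), Vmn1r189 and Vmn1r223 (2 each), and Vmn1r21, Vmn1r219 and Vmn1r235 (1 each).

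Of the 5 members with 10 reads or more, the null libraries lay all above the wild type in 1, Vmn1r90, and all below in 0. Over the 19353 rows of the table with 10 reads or more, 8.56% lay all above and 2.78% all below. In the fit over every row, 1 member, again Vmn1r90, was called higher (limma, adjusted p = 0.0291), where 0.0154% of rows were called, and 0 were called lower, where 0.00385% were. After median centring these shares were 0.0347% and 0.00385%. This call over every row was lost when null library B or D was left out (limma, adjusted p = 0.0644 and 0.0588), and likewise for wild-type library B or C (0.0526 and 0.105), while the log2 change stayed at 2.14 to 2.30. After median centring the call was kept without each of these 4 libraries (adjusted p = 0.0222, 0.0146, 0.0037 and 0.023 by limma, in the same order). The 190 members with no read carry only the table's floor and cannot be read as unchanged.

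The 200 members without Vmn1r90 had 59, 70, 58 and 62 reads in sum in the null libraries and 69, 69 and 45 in the wild type. The groups overlapped. The summed level was 2.69 ± 0.193 (SD, n = 4) in the null and 2.87 ± 0.548 (SD, n = 3) in the wild type, a ratio of 0.937. Leaving out Vmn1r4 as well gave 0.984, and leaving out wild-type library B gave 1.03. With Vmn1r90 the family sum was 34.8 ± 1.45 and 10.2 ± 1.27, a ratio of 3.41.

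Levels can be compared between members only per length, here as RPM per kb of exon in GENCODE M21, with the exons of overlapping same-strand genes included. Vmn1r90 with Nlrp5-ps stood at 3.09 in the null and 0.707 in the wild type over 10374 exon bases. Vmn1r4 stood at 0.525 and 0.570, Vmn1r32 at 0.145 and 0.135, and Vmn1r53 at 0.103 and 0.0892. Vmn1r200 was at 0.00547 and 0.0176. The exon bases were not cut to the row, so they can exceed it. Vmn1r200 spans 1063 bases but was divided by 6107, and Vmn1r53 spans 1122 but was divided by 1859. The order of these rows depends on the length used. Another length is the whole span of the row, which applies if the interval and not the exons was counted. Per kb of it, the wild-type levels of Vmn1r53 (0.148) and Vmn1r200 (0.101, from few reads) were above that of Vmn1r90 (0.0794). In the null Vmn1r90 (0.347) was above both (0.171 and 0.0314). Per kb of exon in the wild type the levels per length of Vmn1r90 (0.586 to 0.843 over the libraries) and Vmn1r4 (0.477 to 0.734) overlapped, whereas in the null Vmn1r90 (2.95 to 3.24) lay apart from Vmn1r4 (0.475 to 0.648). Those of Vmn1r32 and Vmn1r53 overlapped in both genotypes.

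The rows with reads were often long ones. Of 18 members whose row spans over 2 kb, 5 had reads, and of the 183 shorter ones 6 had. The median span was 945 bases over all members. A row longer than the single coding exon holds introns, untranslated exons or another gene's sequence. Part of the reads may therefore not come from a receptor coding sequence, which was not tested. For 139 members the row has exactly the coordinates of a RefSeq gene, and for 137 of them that gene has the row's name. The 2 exceptions were Vmn1r90 and the second of 2 rows named Vmn1r112. That second row, at chr7:21612745-21615147, has the coordinates of Vmn1r132, and the coding sequence of Vmn1r112 was used for both. In all, 7 rows overlap another gene on the same strand in GENCODE M21, among them Vmn1r53 with Gm20426. The closest relative of each member but Vmn1r90 was sought only among the few members that share most short stretches with it. For Vmn1r183 this gave Vmn1r143 at 91.4%, although Vmn1r180 was at 93.0%. The median identity of a member to the relative found was 92.6%, and 76 members had one at 95% or more. Both values can be too low. Counts of single members are therefore uncertain.

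The machinery around the receptors was described from a list of 16 vomeronasal signalling genes in the table. Of the 10 that passed the filter, 0 were called higher and 0 lower, with a median log2 change of 0.09, beside 0.16 over all rows, and -0.11 after median centring, beside -0.03. Gnai2, the G protein subunit that couples to these receptors but is expressed in many tissues, stood at 175 to 184 RPM in the null and 173 to 198 in the wild type, so that the groups overlapped (log2 change 0.09, limma, adjusted p = 0.644, and -0.10 after centring). Gnao1, the subunit used by type 2 receptors, stood at 18.1 to 21.7 and 21.6 to 30.2 RPM (log2 change -0.19, limma, adjusted p = 0.624, and -0.38 after centring). Trpc2, the transduction channel, stood at 98.4 to 111 and 86.7 to 109 RPM (log2 change 0.24, limma, adjusted p = 0.485, and 0.05 after centring). GENCODE M21 places Xndc1 and Xntrpc on the same strand as Trpc2, so that row is shared too. Of the 12 neuronal transcription factors in a second list, 6 passed the filter and 0 were called.

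Most genes that mark mature olfactory and vomeronasal neurons had few reads. Omp, the olfactory marker protein gene, had 6 to 13 reads in the null and 4 to 8 in the wild type, and its row overlaps Capn5 on the same strand. The cyclic nucleotide channel genes Cnga2 and Cnga4 had 0 to 3 and 1 to 6 reads. Rtp1, a receptor transport gene, had 2 reads in wild-type library A and 0 in the other 6. The channel gene Ano2 had 18 to 32. Of the 7 markers of these neurons in the table, 2 passed the filter (Trpc2 and the G protein subunit gene Gng8) and 0 were called. The summed level of the 7 was 106 to 119 RPM in the null and 92.5 to 117 in the wild type. Most of that sum was Trpc2 (98.4 to 111 and 86.7 to 109), whose row is shared with Xndc1 and Xntrpc.

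Markers of neighbouring tissues gave 0 calls, but some stood apart between the genotypes. The summed level of the 3 notochord markers was 66.3 to 93.0 in the null and 42.9 to 53.2 in the wild type. For the 3 hindgut markers it was 116 to 136 and 51.8 to 102. Wild-type library B gave the low end of the wild-type range in both lists. In each list 2 of 3 genes had every null library above every wild-type library, as did 8.56% of all rows with 10 reads or more. None of the neural tube, somite, blood, endothelium and surface ectoderm markers was called either. The part of these tissues in the Vmn1r90 difference was not tested.

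Other chemoreceptor families were set beside the Vmn1r rows. The 119 rows of Vmn2r, the type 2 vomeronasal receptors, included 80 without a read (67.2%) and 10 with 10 reads or more. Their summed level was 24.6 ± 1.58 in the null (SD, n = 4) and 25.3 ± 1.23 in the wild type (SD, n = 3), a ratio of 0.969. Most of that sum lay in 1 row, Vmn2r53 (17.7 and 18.9). Of the 2 rows fitted 0 were called. Of the 10 rows, 2 had every null library above every wild-type library and 1 had every one below, beside 8.56% and 2.78% of all rows. Of the 1110 odorant receptor rows (Olfr), 92.7% had no read, 8 had 10 reads or more, and the ratio of the sums was 1.04. Of those 8, 1 had every null library above the wild type and 0 had every one below. Of the 35 bitter taste receptor rows (Tas2r) 30 had none, and of the 15 trace amine receptor rows (Taar) 11 had none. The summed level thus stood near a ratio of 1 in Vmn2r, in Olfr and in the Vmn1r rows without Vmn1r90.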

How the data were processed

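RNA-seq of dissected E9.5 mouse tissue was analysed in 4 Smchd1 null and 3 wild-type libraries. The authors deposited log2 CPM per gene row. The submitters' processing notes name the aligner TopHat2 2.0.12 on mm10, with bcl2fastq and edgeR, but not how these were set. How reads were counted (tool, strand, annotation) is not given in the sources used here. Columns were placed in their genotype by name, and no column was left out.

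Reads were recovered from the steps of the log2 values, where a row without reads is the minimum of its column. Every checked value under 1000 reads came out whole within 0.01. Levels (RPM) are per 1000000 reads in listed genes, since the deposited denominators also hold reads outside the listed genes. No count model was run on the log2 values. Rows that exceeded 0 on the log2 scale in 3 libraries or more were fitted with limma 3.58.1 (R 4.3.3; trend, Benjamini-Hochberg adjustment over all rows fitted, threshold 0.05), and every row was fitted a second time without the filter. The fit was tested on simulated data. Single rows were tested with exact two-sided permutation tests over the 35 splits.

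Named genes were Vmn1r90, every Vmn1r row with 10 reads or more, every row within 500 kb of Vmn1r90, and Trpc2, Gnai2, Gnao1 and Omp from the lists. Others, among them Nlrp5, the rows within 2000 kb and the remaining neuron markers, were chosen after their values were seen. The members and lists were chosen with earlier results of these data known. Alternatives covered the filter, pseudocount, scaling, voom on the recovered reads, prior and weights, each library left out and a block. The fits that combine centring with a block or a left-out library, and the alternatives of the Vmn1r90 ratio, were added after seeing the data. Annotation came from GENCODE M21 and RefSeq (GRCm38.p6), read with Python 3.11.15.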

Additional observations from a re-analysis of the deposited data

Results flagged for a closer look

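Among the 5 Vmn1r rows with 10 reads or more, 1 library stood apart from the others of its group. Vmn1r4 was at 2.42 RPM (reads per 1000000 reads in listed genes) in null library B, against 1.78 to 1.85 in the other 3 null libraries, and the gap was 0.883 of the whole range of the group, above Dixon's critical value for 4 samples. Such a gap is found by chance in about 1 in 20 groups, and 5 groups were looked at. The value rests on 57 reads, and the wild-type libraries, at 1.78 to 2.75, spread as widely.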

How the results depend on the processing

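Vmn1r90 kept its direction and its call in all 26 alternatives of the filtered fit (log2 change 1.89 to 2.60; 2.14 to 2.54 with 1 library left out), and its ratio in RPM was 4.03 to 4.84 in the 8 run, where the permutation p is limited to 0.0667 or 0.1 with 6 libraries. The ratio of the other Vmn1r rows was 0.851 to 1.03 in the 9 run. The number of rows called was less stable. Against 6 in the filtered fit it was 13 with a filter at log2 1, 12 with a pseudocount of 1, 19 with cyclic loess, 16 with quantile normalization, 12 with voom, 3 without a trend, 53 with a robust prior, 9190 with array weights, which did not converge, and 10 after centring without wild-type library B. It was 2 to 4220 with 1 library left out, and 4 to 10 after centring. The number of Vmn1r rows called over every row, 1 in the main fit, was 0 with a pseudocount of 1 and without a trend, 3 with array weights and 192 after centring without wild-type library A, where rows without reads carry each library's own floor. It was 0 to 1 with 1 library left out. Rows with every null library above the wild type numbered 1657 and, with 1 library left out, 1928 to 3037. Rows below numbered 538 and, with 1 left out, 668 to 2032, or 40 on the deposited denominator. The highest values came without wild-type library A, and these criteria pass more easily with fewer libraries. No neighbour within 500 kb of Vmn1r90 had 10 reads, and 1 did within 1000 kb. Other causes were not tested.

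Libraries that share the last number of their column names were not treated as pairs in the main fit. Their deviations from the group means correlated at 0.36 (18), -0.05 (21) and 0.47 (22) over rows. Between different numbers the correlations ran from -0.51 to 0.30. These values depend on each other, since the mean of each group was removed. Whether libraries are paired by the last number was not tested. A replicate block on that number called 742 rows in the filtered fit and 0 Vmn1r rows over every row (limma, adjusted p = 0.0942 for Vmn1r90), and gave a log2 change of 2.23 for Vmn1r90 in the filtered fit. After centring, the same block called 8 rows in the filtered fit and 1 Vmn1r row, Vmn1r90, over every row (limma, adjusted p = 0.0102). The depth limits all members but Vmn1r90 and Vmn1r4.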
